A study of Mus musculus with 2 samples.

Results

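Renin leaves the juxtaglomerular cells at the end of the preglomerular arteriole under the control of receptors on these cells and their neighbours. The genes described here encode 9 of these receptors, out of 22270 named genes on the arrays. They are the beta-1 adrenergic receptor gene Adrb1, the prostaglandin receptor genes Ptger2, Ptger4 and Ptgir, the calcitonin receptor-like gene Calcrl, the adenosine receptor gene Adora1, the natriuretic peptide receptor genes Npr1 and Npr3, and the calcium-sensing receptor gene Casr. A gene was taken where the symbol that opens its name in the deposited annotation was one of these. Each of the 9 had 1 probe set.

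The RBP-J cKO array carried pooled arteriole RNA of 4 male mice that were Ren1d+/cre. The wild type array carried that of 3 mice, 2 males and 1 female and all Ren1d+/+. All mice were 3 months old and of mixed 129Sv and C57Bl6 strain, and all carried RBP-J flox/flox and R26R ECFP, so that cre at the Ren1d locus is the labelled difference. RBP-J is the DNA-binding partner of the Notch receptors, and cre driven from the renin locus acts in renin cells and in cells descended from them, not in the whole vessel. Each genotype has 1 array of pooled RNA, so no test between genotypes was possible, and genotype, sex of the pool and array cannot be told apart.

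Receptors that act through the stimulatory G protein raise cyclic AMP in juxtaglomerular cells, and cyclic AMP drives the release of renin and transcription of its gene. Noradrenaline from sympathetic nerves, prostaglandins E2 and I2 and the peptides CGRP and adrenomedullin use this route. Adenosine, extracellular calcium and atrial natriuretic peptide restrain release, through the inhibitory G protein, through calcium-inhibited adenylyl cyclase and through cyclic GMP.

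Levels are log2 values from RMA, and every difference is the cKO level minus the wild type level. A floor was set at 7.56, the median over named probe sets, and 11580 genes reached it on at least 1 array. Levels of different genes come from different probes and are not set against each other. Over these 11580 genes the median difference was 0.02, and the differences spread around it with a standard deviation of 0.31. Rbpj, the targeted gene, read 9.02 in cKO and 9.0 in wild type, and its second probe set read 5.81 in cKO and 5.93 in wild type. The position of these probes relative to the floxed part is unknown here, so they do not check the labels. Ren1, the renin gene, read 10.19 in cKO and 10.77 in wild type. A near-identical renin gene copy of some strains may share this value. Cre lies at the Ren1d locus in the cKO mice, so Ren1 does not measure renin cells apart from that allele. Smooth muscle actin, Acta2, read 11.36 in cKO and 11.21 in wild type and marks the labelled vessel, while the podocyte gene Nphs1 at 10.20 in cKO and 10.83 in wild type, and the thick limb gene Umod at 12.90 in cKO and 12.79 in wild type, were also present. Less RNA per cell and fewer cells of a type cannot be told apart in such a preparation.

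The receptor genes were lower in the cKO pool more often than higher. Of the 9 genes, 7 were lower and 2 were higher, with a median difference of -0.08. That median was -0.23 with the authors' dChip values and -0.32 over the receptor genes above the floor described below. Over all named genes 51.4% were lower with RMA, with a median of -0.01. The like share with dChip is not given here, and the median dChip intensity of all probe sets was 256.3 in cKO and 268.0 in wild type. With RMA the 9 genes fell into 3 sets by size. Calcrl, Npr1, Ptger4 and Npr3 were lower by more than 0.3, Casr was higher by more than 0.3, and Ptger2, Ptgir, Adora1 and Adrb1 differed by less than 0.1. These sets did not hold with dChip. Calcrl, Npr1, Ptger4 and Casr still differed by more than 0.3, but Npr3 was at -0.29. Ptgir was at -0.23, Ptger2 at -0.15 and Adora1 at -0.14, which left Adrb1 alone within 0.1. With RMA, Calcrl was the 1 receptor gene at least 1.5-fold lower, against 1.61% of the genes above the floor, and 0 were at least 1.5-fold higher, against 4.11%. Above the floor were 7 of the 9, and Adrb1 and Ptger2 were below it. Of these 7, 6 were lower in cKO, where 46.0% of all genes above the floor were.

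**Figure D1:**
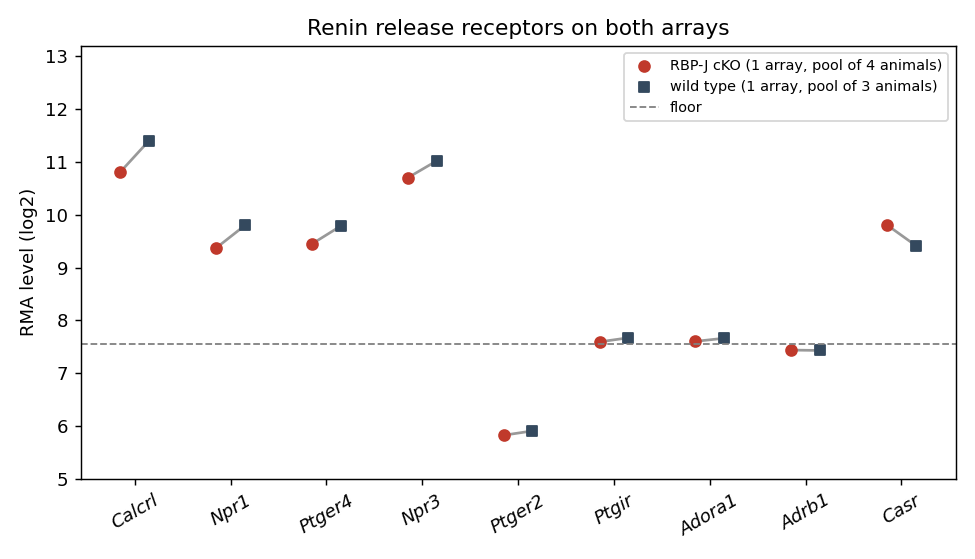
RMA level (log2) of each receptor gene on the RBP-J cKO array (circles) and the wild type array (squares), 1 pooled array each, with genes ordered by their difference and the floor of 7.56 as a dashed line. Calcrl, Npr1, Ptger4 and Npr3 are lower and Casr is higher in cKO; heights of different genes come from different probes and are not comparable.

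Calcrl had the largest difference of the receptors that raise renin release. It encodes the receptor that, paired with a RAMP protein, binds CGRP or adrenomedullin. Its level was 10.81 in the cKO pool and 11.41 in the wild type pool, a difference of -0.59, or 1.51-fold lower. The authors' deposited table held intensities of 2214.7 in cKO and 3269 in wild type for Calcrl, and a signed fold of -1.48, bounded by -1.44 and -1.51, so the 1.5-fold mark was passed with RMA and missed with the authors' dChip values. Of the genes above the floor 1.49% had a lower difference. Among the 810 genes whose mean level lay within 0.5 of its own, 1.60% did, and the middle 95% of these ran from -0.55 to 0.77. Calcrl lay outside that range. Each of the other 8 receptor genes lay inside the range of its own neighbours in level.

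Of the prostaglandin receptor genes, Ptger4 was well above the floor and lower in cKO. Ptger4, which encodes the EP4 receptor for prostaglandin E2, had levels of 9.45 in cKO and 9.79 in wild type, a difference of -0.34. Its intensity in the authors' deposited table was 1106 in cKO and 1458 in wild type, and its signed fold was -1.32, bounded by -1.28 and -1.35. Of the genes above the floor 6.72% had a lower difference than Ptger4. Ptgir, the prostacyclin receptor gene, had levels of 7.59 in cKO and 7.67 in wild type, a difference of -0.08 just above the floor. The authors' deposited table gave Ptgir a larger difference, a signed fold of -1.17, bounded by -1.09 and -1.25. Ptger2, which encodes EP2, the other prostaglandin E2 receptor that acts through cyclic AMP, had levels of 5.82 in cKO and 5.90 in wild type, below the floor on both arrays.

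Adrb1, the receptor through which renal sympathetic nerves drive renin release, read nearly the same in both pools. Its level was 7.44 in cKO and 7.43 in wild type, just under the floor, and the difference was 0.01. The intensities in the authors' deposited table were 236.8 in cKO and 236.1 in wild type, and the bounds of its fold, 0.94 and 1.08, lay on both sides of 1. It was the one receptor gene of the 9 with such bounds, but how many of all probe sets had them was not counted. These bounds come from the probes of 1 probe set on each array and do not hold the spread between animals. Their confidence level is unknown here.

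Among the genes counted as restraining renin release, both natriuretic peptide receptor genes were lower. Npr1 encodes guanylyl cyclase A, which makes cyclic GMP when atrial natriuretic peptide binds. Its level was 9.37 in cKO and 9.80 in wild type, a difference of -0.43, and 4.20% of the genes above the floor had a lower one. Npr3 encodes the clearance receptor, which has no cyclase domain and takes natriuretic peptides out of circulation, so it opposes their action and its place beside Npr1 rests on its ligand. Its level was 10.70 in cKO and 11.02 in wild type, a difference of -0.32. The authors' deposited table gave signed folds of -1.33 for Npr1 and -1.22 for Npr3. The difference of Npr1 was 0.11 lower than that of Npr3 with RMA and 0.12 lower with dChip.

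Of the other restraining receptors, Adora1 read nearly the same in both pools and Casr was higher in cKO. Adora1 encodes the A1 receptor, through which adenosine formed near the macula densa holds back renin. Its level was 7.60 in cKO and 7.66 in wild type, a difference of -0.06, and its signed fold in the authors' deposited table was -1.1 with bounds of -1.08 and -1.13. Casr, the calcium-sensing receptor gene, is expressed in juxtaglomerular cells and, at high level, in the thick ascending limb. Its level was 9.81 in cKO and 9.42 in wild type, a difference of 0.39, or 1.31-fold higher. Its intensity in the authors' deposited table was 1192 in cKO and 880.7 in wild type, and its signed fold was 1.35, bounded by 1.32 and 1.39. A higher difference than that of Casr was found in 10.1% of the genes above the floor. Casr and Calcrl, the ends of the set, lay 0.98 apart. Of the 5 genes that raise renin release 4 were lower, with a median of -0.08 (-0.23 with dChip), and of the 4 counted as restraining it 3 were lower, with a median of -0.19 (-0.22 with dChip). The medians have no stable order, since over the 3 raising genes above the floor the median was -0.34. Without Npr3 the median of the restraining genes was -0.06, with 2 of 3 lower.

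**Figure D2:**
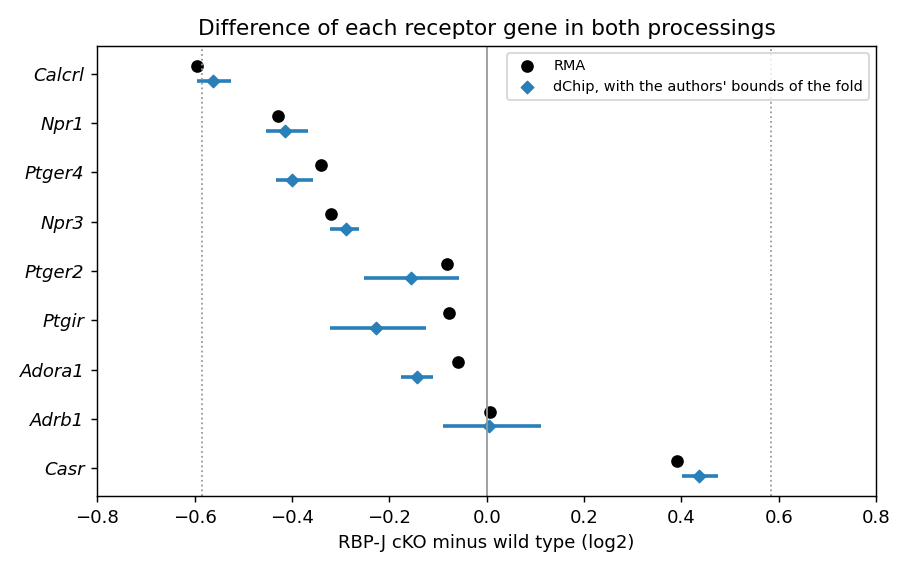
Difference of each receptor gene, in log2 units of cKO over wild type, from RMA (black circles) and from the authors' dChip intensities (blue diamonds), with lines spanning the authors' bounds of the fold and dotted lines at 1.5-fold. Both processings gave the same sign for 9 of 9 genes and differed by at most 0.15, for Ptgir.

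The sign of the difference was the same with RMA and dChip for all 9 receptor genes. None of the 9 carried the mark of the authors' comparison filter. Only 326 of the 35512 probe sets of their table did, so its absence says little about these 9 genes.

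**Figure D3:**
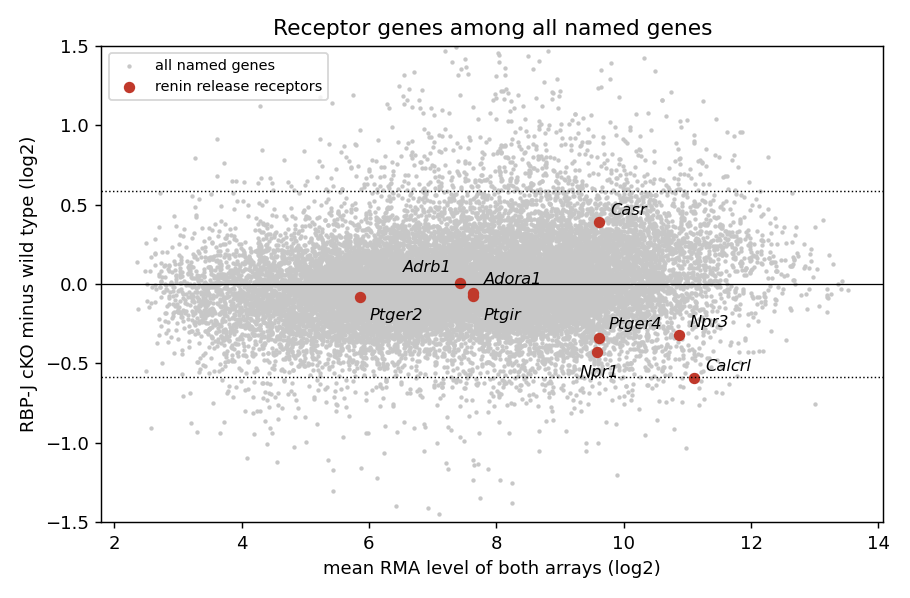
Difference between RBP-J cKO and wild type (log2) against the mean RMA level of both arrays (log2) for 22270 named genes (grey) and the 9 receptor genes (red), with dotted lines at 1.5-fold; 37 genes lie beyond the vertical limits of 1.5. Calcrl reaches the lower dotted line at -0.59, and the other 8 receptor genes lie between the dotted lines.

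The promoter windows of the 5 genes that differed by more than 0.3 with RMA are shown because RBP-J is a DNA-binding factor. Casr was higher in cKO and the other 4 were lower, and an action of RBP-J on these genes was not tested. Each window runs from 250 bases before to 50 bases after a start site of the gene in RefSeq, build GRCm38.p6, and is read 5′ to 3′ on the strand of the gene, which is the minus strand for all 5. Calcrl is at chr2:84425217-84425516, Npr1 at chr3:90465817-90466116, Ptger4 at chr15:5244138-5244437, Npr3 at chr15:11907322-11907621 and Casr at chr16:36562085-36562384. Capitals mark TGGGAA, the core of the RBP-J motif, in Npr1, and TGACG, a partial site of the cyclic AMP response element, in Npr3.
Calcrl: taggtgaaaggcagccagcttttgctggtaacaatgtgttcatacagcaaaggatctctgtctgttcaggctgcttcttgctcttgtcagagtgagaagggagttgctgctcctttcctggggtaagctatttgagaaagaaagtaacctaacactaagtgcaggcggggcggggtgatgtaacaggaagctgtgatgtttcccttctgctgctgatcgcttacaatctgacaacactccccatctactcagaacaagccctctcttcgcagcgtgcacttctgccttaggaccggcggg
Npr1: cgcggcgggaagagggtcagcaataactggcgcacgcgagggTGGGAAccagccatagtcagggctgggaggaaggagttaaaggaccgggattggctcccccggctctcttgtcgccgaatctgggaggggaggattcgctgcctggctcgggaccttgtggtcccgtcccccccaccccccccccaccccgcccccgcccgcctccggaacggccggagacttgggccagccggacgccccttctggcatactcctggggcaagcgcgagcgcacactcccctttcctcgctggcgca
Ptger4: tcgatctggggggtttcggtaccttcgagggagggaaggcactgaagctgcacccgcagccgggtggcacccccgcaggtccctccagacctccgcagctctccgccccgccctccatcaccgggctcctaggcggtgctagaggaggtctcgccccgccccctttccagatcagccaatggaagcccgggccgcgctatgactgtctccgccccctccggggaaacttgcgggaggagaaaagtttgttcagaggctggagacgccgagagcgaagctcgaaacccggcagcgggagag
Npr3: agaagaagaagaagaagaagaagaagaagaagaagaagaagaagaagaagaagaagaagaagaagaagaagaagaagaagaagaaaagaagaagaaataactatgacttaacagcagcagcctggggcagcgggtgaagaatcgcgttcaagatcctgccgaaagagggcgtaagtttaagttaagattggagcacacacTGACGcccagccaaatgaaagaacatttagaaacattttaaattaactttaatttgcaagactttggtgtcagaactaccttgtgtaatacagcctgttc
Casr: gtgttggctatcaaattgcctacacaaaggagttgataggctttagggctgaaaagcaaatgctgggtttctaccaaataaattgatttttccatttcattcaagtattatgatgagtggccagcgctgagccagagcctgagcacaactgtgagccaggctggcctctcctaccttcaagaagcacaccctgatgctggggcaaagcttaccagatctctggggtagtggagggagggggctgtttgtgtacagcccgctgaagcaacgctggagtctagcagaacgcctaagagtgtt

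All 9 receptor genes had a RefSeq window, Adora1 had a pair of them, and all 9 lie on autosomes. On either strand, TGGGAA was found in 2 of the 10 windows and in 25.6% of all 32851 RefSeq windows. The match in Npr1 lies 208 to 203 bases before the start site, and the other, in 1 of the Adora1 windows, 123 to 118 bases before it on the opposite strand. The partial site TGACG was in 2 of the 10 windows, those of Npr3 and Adrb1, and in 20.8% of all windows, and the full element TGACGTCA, which contains it, in 0 of the 10 and in 1.79% of all. The windows also differed in base composition. G and C made up 69.7% of the Npr1 window and 67.0% of the Ptger4 window, but 50.7% for Calcrl, 49.7% for Casr and 39.0% for Npr3, against a median of 52.7% over all windows. These matches describe letters and not binding.

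Calcrl needs a RAMP protein as a partner to bind its ligands, and the RAMP genes above the floor, Ramp2 and Ramp3, were also lower. Ramp2, whose product turns Calcrl into an adrenomedullin receptor, had levels of 9.41 in cKO and 9.82 in wild type, a difference of -0.41 beside the -0.59 of Calcrl. Ramp3 differed by -0.17. Ramp1, which makes the CGRP receptor with Calcrl, was below the floor, and its difference of 0.17 turned to -0.03 with dChip. Over the 12 receptor partners, which also hold receptor kinases and arrestins, 7 were lower and 5 higher with a median of -0.06. The largest after Ramp2 were 0.33 for Slc9a3r1, a scaffold protein that binds membrane receptors and transporters, and 0.20 for the receptor kinase gene Grk3. Grk3 was at 0.03 with dChip.

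Receptors that share a ligand with the 9 genes gave no common direction. Of 9 such genes, 4 were lower and 5 higher, with a median of 0.00. Of the 5 above the floor, 2 were lower and 3 higher, with a median of 0.13. Ptger1, the EP1 receptor gene, had levels of 7.81 in cKO and 8.21 in wild type, a difference of -0.41. Ptger3, whose EP3 receptor lowers cyclic AMP, had levels of 8.78 in cKO and 8.53 in wild type, a difference of 0.26, opposite in sign to Ptger4. Npr2, the C-type natriuretic peptide receptor gene, was at 8.90 in both pools, a difference of -0.00 beside -0.43 for Npr1, and of 0.06 with dChip.

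Of the genes that make the ligands, Ptgs2 stood farthest apart. It encodes the inducible cyclooxygenase, which in the macula densa supplies the prostaglandin E2 that drives renin release. Its level was 8.84 in cKO and 8.23 in wild type, a difference of 0.60, and it was the 1 gene of this list at least 1.5-fold apart. Ptgs1, the constitutive cyclooxygenase gene, differed by -0.37, with levels of 8.98 in cKO and 9.35 in wild type. Entpd1, an ectonucleotidase gene on the path that makes adenosine outside cells, had levels of 9.84 in cKO and 10.37 in wild type, a difference of -0.53. Over the 21 genes of this list 14 were lower and 7 higher, with a median of -0.07. The 12 above the floor were split evenly, 6 lower and 6 higher, with a median of 0.00, and 9 of the 21 were below it. These 9 included the peptide genes Nppa and Calca and the noradrenaline synthesis gene Dbh, whose products mostly reach the arteriole from other cells.

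Genes for breakdown and uptake of the ligands went both ways. Of 9 such genes 4 were lower and 5 higher, with a median of 0.24. The prostaglandin transporter gene Slco2a1 differed by -0.32. Mme, encoding neprilysin, which degrades natriuretic peptides, differed by -0.31, and the adenosine deaminase gene Ada by -0.30.

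Downstream of the receptors, the cyclic GMP genes were lower as Npr1 was, and the G protein genes were close to equal. All 7 genes of the cyclic GMP branch were lower in cKO, with a median of -0.25, and with dChip their median was -0.28. Pde2a, a phosphodiesterase that cyclic GMP activates, had levels of 10.06 in cKO and 10.70 in wild type, a difference of -0.64, and was the 1 gene of the branch at least 1.5-fold lower. Pde5a, which degrades cyclic GMP, differed by -0.31 and Prkg1, the cyclic GMP-dependent kinase gene of smooth muscle, by -0.29. The G protein genes ran from -0.12 for Gnao1 to 0.14 for Gnai1, with 6 of 8 lower and a median of -0.06, and Gnai2 was at -0.11. Gnas, the stimulatory G protein gene on which the cyclic AMP receptors depend, had levels of 10.76 in cKO and 10.80 in wild type.

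Several of the receptors that were lower are also made by endothelial and glomerular cells, and most markers of these cells were lower too. Endothelium expresses Calcrl, Ramp2, Npr1 and Pde2a, and 10 of 12 endothelial markers were lower in cKO, with a median of -0.52, next to -0.59 for Calcrl and -0.43 for Npr1. The summed linear level of that list was 23462 in cKO and 32755 in wild type, and its members included Egfl7 at -0.76 and Kdr at -0.72. The exceptions were Vwf at 0.15 and Cldn5 at 0.04. Podocytes express Npr1 and Npr3, and 8 of 8 podocyte markers were lower, with a median of -0.44 and summed levels of 18196 in cKO and 23105 in wild type. All 7 mesangial and pericyte markers were lower, with a median of -0.51 and summed levels of 8839 in cKO and 11489 in wild type. The 5 renin cell markers had a median of -0.33 and summed levels of 4102 in cKO and 5111 in wild type. The 4 above the floor were lower, while Akr1b7, below it, was at -0.13 with RMA and 0.17 with dChip. Rgs5 at -0.08 is also among the mesangial and pericyte markers. Ren1, at -0.58, is among the renin cell markers, and cre lies at the Ren1d locus in the cKO mice. Its level, and the sum that holds it, therefore do not measure renin cells apart from that allele. Of 8 smooth muscle markers 6 were lower, with a median of -0.05, but they did not differ alike and ran from -0.29 to 0.34. The part of these cell types in the receptor differences was not tested.

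Casr and Ptgs2 were higher beside markers that were higher. Casr was at 0.39. Of 8 markers of the distal nephron from the thick limb onward, macula densa included, 7 were higher in cKO, with a median of 0.27. Their summed levels were 19552 in cKO and 16921 in wild type. The macula densa marker of this list, Nos1, was below the floor on both arrays, at 6.70 in cKO and 6.50 in wild type. Among its thick limb genes Cldn16 differed by 0.74, Umod by 0.12 and Slc12a1 by -0.09, so these genes did not differ alike. The list also holds later distal tubule genes, so its median is not that of the thick limb, where Casr is expressed at high level. All 7 proximal tubule markers were higher (median 0.32), as were 5 of 6 collecting duct markers (median 0.71). All 8 macrophage markers were higher, with a median of 0.98 and summed levels of 4224 in cKO and 1970 in wild type. Macrophages can express Ptgs2, Ptger2 and Ptger4, of which Ptgs2 was higher, at 0.60, and Ptger2 and Ptger4 were at -0.08 and -0.34. Of 7 markers of sympathetic nerve and Schwann cells 5 were lower, with a median of -0.18, and the noradrenaline genes Th and Dbh were below the floor. Every marker had an RMA level on both arrays, as every named gene had, so a level alone does not show that a cell type was present. The part of these cells in the values of Casr and Ptgs2 was not tested. The sex of the pools showed in Xist, at 5.41 in cKO and 11.39 in wild type, and in the 4 Y-linked genes, which were all higher in cKO.

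**Figure D4:**
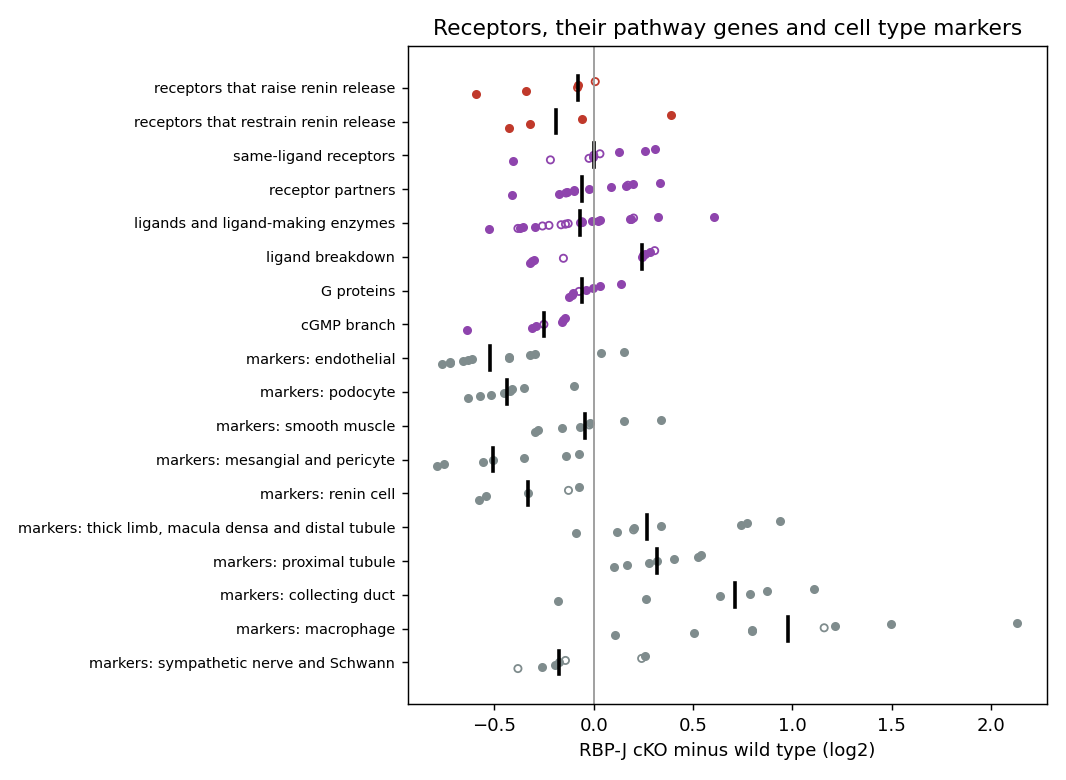
Log2 differences of cKO over wild type for the receptor genes (red), the lists of their pathway (purple) and the cell type markers (grey), with black bars at the medians, filled points for genes above the floor and open points for genes below it. The endothelial, podocyte and mesangial medians lie at -0.52, -0.44 and -0.51, with the median of the distal nephron list, drawn as thick limb, macula densa and distal tubule, at 0.27 and the macrophage median at 0.98; the sex-linked list is not drawn.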

How the data were processed

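Total RNA of magnetically collected arterioles was labelled from 500 ng per array, per the labels' protocols. The main values are log2 values that the authors made with RMA; the submitters' processing notes name R 2.15.0, limma 3.12.1 and RMA without their roles. The deposited linear intensity values and the signed fold score with its bounds were made with dChip, per the file headers. RMA gives both arrays like distributions and would hide a shift common to most genes. The genome build, the annotation and the dChip version are not stated in these sources.

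Of 24612 named probe sets in both tables, names were updated through a RefSeq gene table (GRCm38.p6, names only), giving 22270 genes; the brightest probe set stood for a gene. Medians of all probe sets were 7.21 in cKO and 7.25 in wild type (RMA), and intensities of 256.3 in cKO and 268.0 in wild type. There are no replicates, so no test, p-value or standard deviation between samples was computed; the precision is limited by the number of arrays. Differences of 1.5-fold were counted. The 9 genes were chosen, and the 6 pathway and 11 marker lists drawn up, with earlier results of these data known. The genes named are the 9, Rbpj and Ren1, pathway genes at least 1.5-fold apart or among the 3 largest differences of a list above the floor, and up to 2 markers per list; Acta2, Umod, Slc12a1, Cldn16, Akr1b7, Rgs5, Nos1, Vwf, Cldn5, Ramp1, Ramp3, Npr2, Nppa, Calca, Dbh, Th and Gnas were added after their values were seen. A few genes on the lists are counted but not reported by name. Alternatives were dChip, the mean over probe sets, centring on the median or on a loess trend (fraction 0.4), other floors and a 2-fold threshold. The counting step was tested on artificial values. Python 3.11.15, pandas 2.3.3, NumPy 2.4.6, statsmodels 0.14.6 and matplotlib 3.10.9 were used.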

Additional observations from a re-analysis of the deposited data

How the results depend on the processing

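No paired analysis was possible because each genotype has 1 array. A difference or median counted as moved when it shifted by more than 0.31, the standard deviation of the differences across genes above the floor, and a count when it changed by more than 1.5 times. Of 71 alternative values, 66 stayed within these limits and 5, all counts over the whole array, did not. The limit of 0.31 exceeds the differences of Ptger2, Ptgir, Adora1 and Adrb1 and says nothing about their stability. It also exceeds the median of the 9 and the medians of the raising and restraining genes, and says nothing about the stability of these medians. Ptgir, for one, was at -0.08 with RMA and -0.23 with dChip. The mean over probe sets is the same value for the 9 genes, which have 1 probe set each. Centring on the median shifts every gene by the same 0.02. Neither alternative could move a value of the 9 beyond the limit. Genes at least 1.5-fold lower in cKO numbered 332 with no floor and 102 with a floor at the 75th percentile, against 186. Those at least 1.5-fold higher numbered 286 with the higher floor, against 476. At 2-fold, 23 genes were lower and 99 higher. Calcrl was the 1 receptor gene at least 1.5-fold apart with RMA, the mean over probe sets and both centrings, and 0 were with dChip. The 9 receptor genes numbered 8 lower with either centring, as Adrb1 turned to -0.01. Leaving out Npr3 and splitting the floor by role were chosen after seeing the data. The median of the 9 ran from -0.08 to -0.23 over the processing alternatives, lowest with dChip, and was -0.32 over the 7 above the floor, a filter that drops the near-equal Adrb1 and Ptger2. Both arrays are pools, so the spread between animals is unmeasured.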
